A study of Rattus norvegicus with 8 samples.

Results

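Rat genes for 3 lysosomal proteases (Ctsb, Ctsd and Ctsl), the secreted protease inhibitor cystatin C (Cst3), the lysosomal membrane protein Cd63 and lysozyme (Lyz2) were compared between spinal cord taken after a spinal cord injury and cord of uninjured rats. They were chosen by 6 Ensembl identifiers among the 32883 of the count table, and all 6 were found there. Identifiers and symbols were paired beforehand as ENSRNOG00000010331 (Ctsb), ENSRNOG00000020206 (Ctsd), ENSRNOG00000018566 (Ctsl), ENSRNOG00000005195 (Cst3), ENSRNOG00000007650 (Cd63) and ENSRNOG00000005825 (Lyz2), since the table itself holds no names. All rats were of the outbred Sprague Dawley strain. The injured group (4 libraries) was sampled 4 days after hemisection at thoracic level 9, in which the cord is severed on one side, and the other group (4 libraries) had no spinal cord injury. By its title the series used upper lumbar cord, while sample labels say upper spinal cord, and the question was how the injury affects RNA in cord that was itself left intact. The sources used here do not give age, sex, any sham operation of uninjured rats, or whether the libraries stand for separate animals, so p-values reflect no more than library-to-library spread, part or all of which may be technical.

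Lysosomes are acidic vesicles in which cells degrade proteins, lipids and engulfed debris. Cathepsins B and L are cysteine proteases and cathepsin D is an aspartic protease of this compartment, cystatin C blocks the cysteine proteases outside the cell, Cd63 is a tetraspanin of late endosomal, lysosomal and exosomal membranes, and lysozyme cleaves the cell walls of bacteria. In the central nervous system, microglia and infiltrating macrophages are rich in lysosomal proteases and lysozyme, whereas cystatin C is also made in large amounts by astrocytes.

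Many lysosomal genes carry a short palindrome, the CLEAR element, which the transcription factor TFEB binds and whose core is the E-box CACGTG. The 250 bases before the annotated start were searched on both strands for CACGTG and for the longer TCACGTGA, which contains it. RefSeq windows of assembly GRCr8 were found by symbol for 5 of the 6 genes, all but Ctsb. CACGTG stood in 5.59% of the 33469 windows of this length and TCACGTGA in 0.657%. Among the 5 genes, CACGTG was found in Ctsd and Cd63 and TCACGTGA in Ctsd. The windows of 3 genes are printed 5′ to 3′ on the strand of the gene, and capitals mark the motifs. They are those of Ctsd with both motifs, Cd63 with the shorter one and Ctsl with neither. Cst3 and Lyz2 also hold neither and are not printed. A relation between the motifs and the changes after injury was not tested. In Ctsd (chr1:206968822-206969071, minus strand) CACGTG begins 157 bases before the start and again inside TCACGTGA, which begins 11 bases before it. In Cd63 (chr7:1921894-1922143, plus strand) it begins 190 bases before the start. Ctsl is at chr17:769854-770103, plus strand. A match describes the letters of the window and not binding.
Ctsd: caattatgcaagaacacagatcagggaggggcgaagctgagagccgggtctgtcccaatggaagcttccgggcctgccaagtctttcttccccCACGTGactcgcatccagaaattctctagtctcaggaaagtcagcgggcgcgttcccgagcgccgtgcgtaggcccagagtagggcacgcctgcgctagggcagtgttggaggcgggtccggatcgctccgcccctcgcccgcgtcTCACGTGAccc
Cd63: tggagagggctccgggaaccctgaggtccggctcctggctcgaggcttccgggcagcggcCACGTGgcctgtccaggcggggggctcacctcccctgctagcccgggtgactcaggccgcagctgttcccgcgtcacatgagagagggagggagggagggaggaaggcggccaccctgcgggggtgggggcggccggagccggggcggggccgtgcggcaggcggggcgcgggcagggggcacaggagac
Ctsl: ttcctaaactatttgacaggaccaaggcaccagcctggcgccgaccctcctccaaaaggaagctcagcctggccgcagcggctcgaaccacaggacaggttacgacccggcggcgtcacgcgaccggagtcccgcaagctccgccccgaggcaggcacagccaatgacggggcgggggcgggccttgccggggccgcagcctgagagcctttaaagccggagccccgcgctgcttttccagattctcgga

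The CEL-Seq2 method primes at the poly(A) tail and marks each molecule with a random tag (unique molecular identifier, UMI), so the values are UMIs per gene. Library totals ran from 112264 to 320199 UMIs, and the injured libraries (195113 to 320199) were mostly deeper than the uninjured ones (112264 to 221177). Levels are given as CPM, the UMIs of a gene when the library total is scaled to 1000000. Fold changes come from edgeR with TMM scaling, which centres on the bulk of the genes, and are therefore somewhat smaller than ratios of CPM (the median log2 fold change of all tested genes was -0.03 with TMM and 0.12 with totals as the only scaling). Over the 3073 genes with enough counts to test, 70 were higher and 6 lower after injury (quasi-likelihood test of edgeR, threshold 0.05 on the p adjusted by Benjamini-Hochberg). Titles number the libraries of each group from 1 to 4, and same-number libraries deviated together. Libraries 1 and 2 also did so across numbers, to a lesser degree. A fit with the number as a block was therefore also made, although no label calls the libraries paired. It called 208 genes higher and 140 lower. Markers of the tissue and of other cell types were not analysed here. In bulk tissue, more cells of a type and more RNA per cell cannot be told apart.

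Of the 6 genes, Ctsb and Ctsl rose after injury and 0 fell, where 2.28% of all tested genes passed as higher and 0.195% as lower. The 6 genes were chosen with earlier results of these data known, so shares of all tested genes are given for scale and are no test of the 6. All 6 log2 fold changes were above 0, as were 46.5% of those of all tested genes. For 5 of the 6, all but Cst3, the unadjusted edgeR p was below 0.05, as for 8.49% of all tested genes in this direction. With the block 4 of the 6 rose, Ctsb, Ctsl, Cd63 and Lyz2, where 6.77% of all tested genes did. Ctsd and Cst3 passed in neither fit. The median log2 fold change of the 6 was 1.14 without and 1.13 with the block, and for all tested genes it was -0.03 in both. All 6 were in the tested set. However, Ctsl had only 2 and Lyz2 only 1 uninjured library above the 48.0 CPM that the low-count filter required in 4 libraries, so these 2 entered through the injured group.

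**Figure D1:**
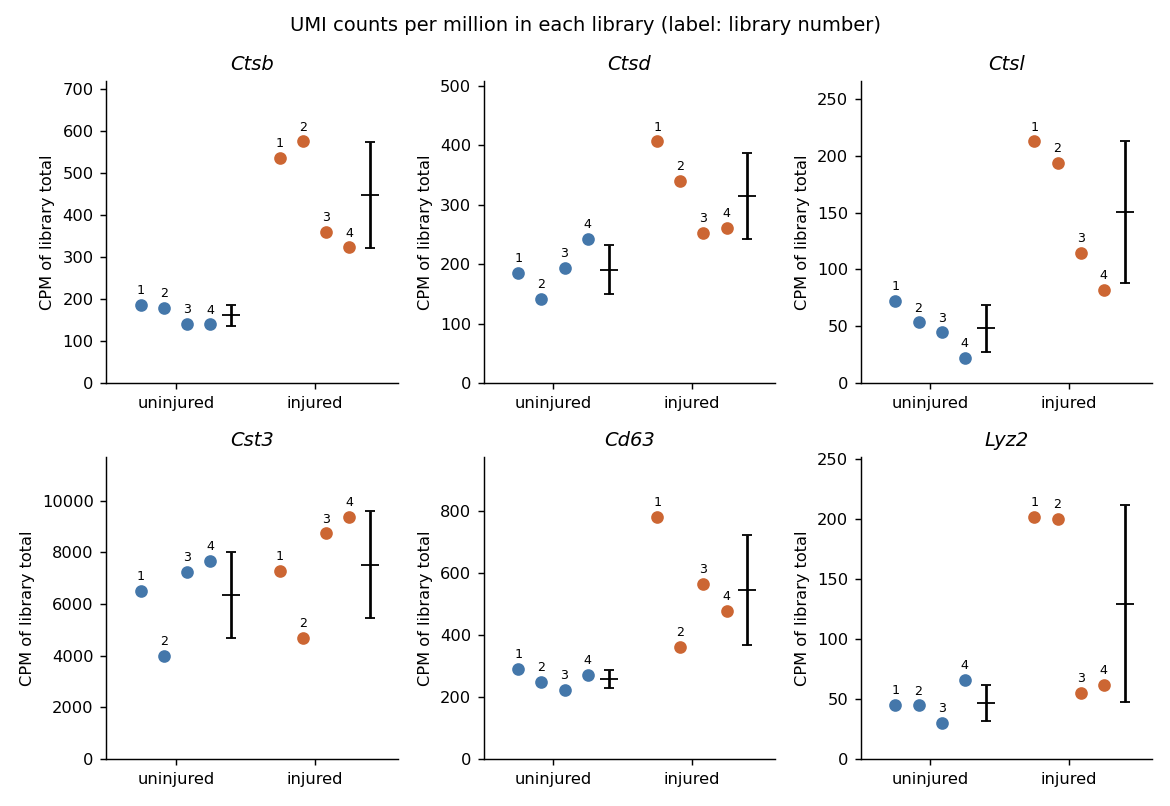
Level of each gene in each library, in CPM of the library total on a linear axis from 0; points are libraries labelled by number, and bars give the mean ± SD of 4 libraries. Ctsb, Ctsd, Ctsl and Cd63 have every injured point above every uninjured one, Ctsd by a narrow gap, while Cst3 and Lyz2 overlap.

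Ctsb, which encodes the cysteine protease cathepsin B, had the lowest p of the 6 genes. Uninjured libraries 1 to 4 held 41, 20, 19 and 19 Ctsb UMIs, or 185, 178, 141 and 140 CPM. Injured libraries 1 to 4 held 146, 184, 91 and 63 UMIs, or 535, 575, 359 and 323 CPM. The lowest injured library thus lay well above the highest uninjured one, and in both groups libraries 1 and 2 lay above 3 and 4. Group means were 448 ± 126 CPM after injury and 161 ± 24.02 CPM without it (SD, n = 4). The fitted rise was 2.53-fold (log2 fold change 1.34, SE 0.24, edgeR adjusted p = 0.00490). Ctsb had the 25th lowest p among the 3073 genes and the 75th highest log2 fold change. With every library thinned to 112264 UMIs, which removes the difference in depth between the groups, its log2 fold change was 1.39 (edgeR adjusted p = 0.00697). Its call held when any 1 library was left out (log2 fold change 1.22 to 1.45, edgeR adjusted p up to 0.0324) and under all 23 alternatives tried.

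Ctsl, which encodes cathepsin L, rose as well, on few UMIs per library. Uninjured libraries 1 to 4 held 16, 6, 6 and 3 UMIs, or 72.3, 53.4, 44.6 and 22.1 CPM. Injured libraries 1 to 4 held 58, 62, 29 and 16 UMIs, or 213, 194, 114 and 82.0 CPM. The groups did not overlap, though injured library 4 came close to uninjured library 1, and counting error alone was wide at this depth: the 3 UMIs of uninjured library 4 allow 4.55 to 64.5 CPM (95% exact binomial interval, counting error only). Means were 151 ± 62.5 CPM after injury and 48.1 ± 20.9 CPM without it (SD, n = 4). The fitted rise was 2.79-fold (log2 fold change 1.48, SE 0.37, edgeR adjusted p = 0.0410). The call was lost in 6 of the 8 fits without 1 library: without uninjured 1 (edgeR adjusted p = 0.0695), uninjured 2 (0.104), uninjured 3 (0.111), uninjured 4 (0.0710), injured 1 (0.135) or injured 2 (0.113). In those 6 fits its log2 fold change was between 1.29 and 1.74, and with limma-voom its adjusted p was 0.141. With the block the log2 fold change was 1.51 (SE 0.28, edgeR adjusted p = 0.00103). That call held without any 1 same-number pair (edgeR adjusted p up to 0.0214, without pair 1). At equal depth neither Ctsl nor Lyz2 had enough UMIs to be tested.

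Ctsd, which encodes the aspartic protease cathepsin D, was higher after injury in these libraries without passing the test. Uninjured libraries 1 to 4 held 41, 16, 26 and 33 UMIs, or 185, 143, 193 and 243 CPM. Injured libraries 1 to 4 held 111, 109, 64 and 51 UMIs, or 407, 340, 252 and 261 CPM. Injured libraries 1 and 2 stood apart from the uninjured group, while injured 3 and 4 lay just above its highest value. Means were 315 ± 72.7 CPM and 191 ± 41.1 CPM (SD, n = 4). The fitted log2 fold change of 0.58 (SE 0.25) did not pass the test (edgeR adjusted p = 0.301, unadjusted p = 0.0334), with a 95% interval of 1.04-fold to 2.16-fold. With the block the edgeR adjusted p was 0.0647, and without 1 pair it ranged widely: 0.408 without pair 1 (log2 fold change 0.40), 0.241 without pair 2 (0.47), 0.0920 without pair 3 (0.72) and 0.00201 without pair 4 (0.83). With all pairs, the block and totals as the only scaling it was 0.0147.

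Cst3 encodes cystatin C, the inhibitor of cathepsins B and L. Uninjured libraries 1 to 4 held 1438, 447, 975 and 1045 UMIs, or 6502, 3982, 7249 and 7684 CPM. Injured libraries 1 to 4 held 1991, 1504, 2215 and 1827 UMIs, or 7296, 4697, 8732 and 9364 CPM. The groups overlapped widely, and library 2 was the lowest of its group in both. Means were 7522 ± 2073 CPM after injury and 6354 ± 1655 CPM without it (SD, n = 4). The log2 fold change of 0.11 (SE 0.28) did not pass the test (edgeR adjusted p = 0.904), and its 95% interval ran from 0.721-fold to 1.62-fold. Within the pairs the spread was much smaller: the injured library was 1.12, 1.18, 1.20 and 1.22 times its uninjured partner in CPM. With the block the log2 fold change was 0.11 with an SE of 0.12 (edgeR adjusted p = 0.638).

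The largest count in the table was 4047, just under the 4096 different tags that 6 bases allow, although the sources used here do not give the tag length. With such tags Cst3 used 36.7% to 54.1% of them in injured and 10.9% to 35.1% in uninjured libraries. After a correction for molecules that drew the same tag, applied to all genes, Cst3 was at 8627, 4660, 10025 and 10028 CPM in injured libraries 1 to 4. In uninjured libraries 1 to 4 it was at 6660, 3601, 6592 and 6528 CPM. Library 2 remained lowest in both groups, and the 3 other injured libraries then lay above all uninjured ones. Part of this shift came from the library totals, which the correction raised as well. Cst3 UMIs rose in every library, in uninjured 4 from 1045 to 1206, yet its CPM fell in injured 2 and uninjured 2, 3 and 4. The totals include genes close to the tag limit, where the correction is steep and uncertain. The log2 fold change went from 0.11 to 0.34 without the block (edgeR adjusted p = 0.677) and to 0.33 with it (edgeR adjusted p = 0.0452), a combination added after the data were seen. The 5 other genes held at most 213 UMIs in a library, and their log2 fold changes moved little, for Ctsb from 1.34 to 1.35.

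**Figure D2:**
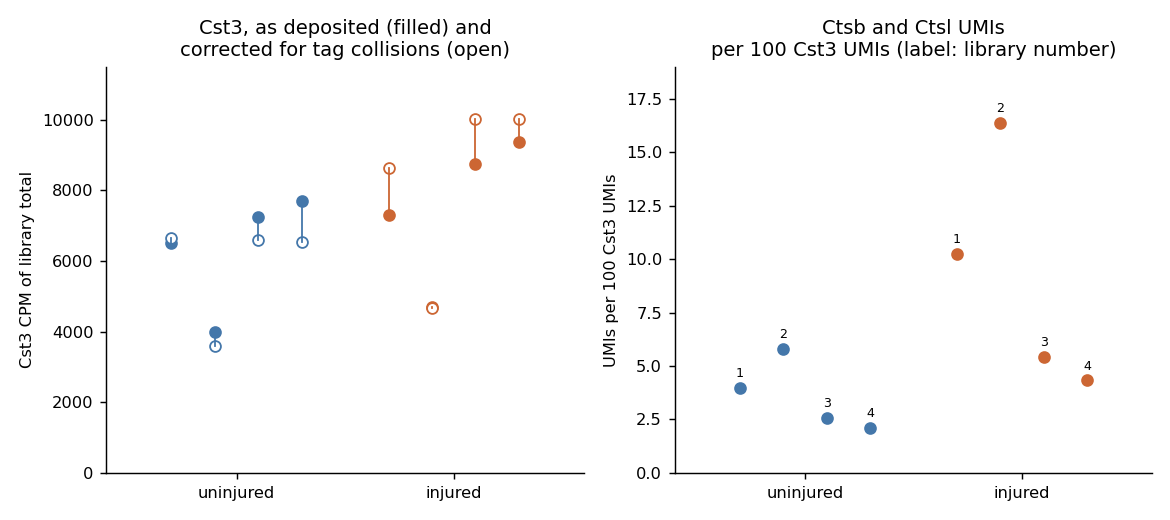
Left, Cst3 in CPM per library as deposited (filled) and after the correction for tag collisions (open), in library order 1 to 4 within each group; right, UMIs of Ctsb and Ctsl together per 100 Cst3 UMIs as deposited, points labelled by library number. In CPM the correction raises injured libraries 1, 3 and 4 most and lowers injured 2 and uninjured 2, 3 and 4. On the right injured 1 and 2 stand above all other libraries.

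The 2 cysteine cathepsins were also set against cystatin C, which inhibits them. Ctsb and Ctsl together gave 10.2, 16.4, 5.42 and 4.32 UMIs per 100 Cst3 UMIs in injured libraries 1 to 4. In uninjured libraries 1 to 4 they gave 3.96, 5.82, 2.56 and 2.11. Injured 1 and 2 were the highest, while uninjured 2 exceeded injured 3 and 4, so the groups overlapped. After the tag correction the values were lower, at 7.59, 13.3, 3.80 and 3.27 in injured and 3.22, 5.50, 2.24 and 1.82 in uninjured libraries, with uninjured 2 still above injured 3 and 4. The ratio was higher in the injured library of each pair with and without the correction, and was not tested. In CPM the 3 cathepsins together ran from 666 to 1154 in injured and from 374 to 443 in uninjured libraries. Ctsb made up 46.4% to 51.8% of these cathepsin UMIs in injured and 34.6% to 47.6% in uninjured libraries.

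Cd63 encodes a tetraspanin of lysosomal and exosomal membranes. Uninjured libraries 1 to 4 held 64, 28, 30 and 37 UMIs, or 289, 249, 223 and 272 CPM. Injured libraries 1 to 4 held 213, 116, 143 and 93 UMIs, or 781, 362, 564 and 477 CPM. All injured libraries lay above all uninjured ones, with injured 1 the highest and injured 2 the lowest of its group. Means were 546 ± 177 CPM after injury and 259 ± 28.7 CPM without it (SD, n = 4). The log2 fold change was 0.94 (SE 0.25), just short of the threshold without the block (edgeR adjusted p = 0.0552). With the block Cd63 rose 1.91-fold (log2 fold change 0.93, SE 0.18, edgeR adjusted p = 0.00129), and it kept that call without any 1 pair (up to 0.0409, without pair 1). Without the block it was also called with totals as the only scaling (0.0199), by edgeR without the low-count filter (0.00971), and by DESeq2 without that filter (adjusted p = 0.0360). Of the 8 fits without 1 library it was called in 1, without injured 2 (edgeR adjusted p = 0.0256), and the edgeR adjusted p of the others reached 0.206, without injured 1; limma-voom gave 0.0926.

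Lyz2 encodes a lysozyme, and rats have a closely related neighbour: 2 entries of the RefSeq table carry Lyz2 as symbol or synonym, so the split of reads between the copies is uncertain. Uninjured libraries 1 to 4 held 10, 5, 4 and 9 UMIs, or 45.2, 44.5, 29.7 and 66.2 CPM. Injured libraries 1 to 4 held 55, 64, 14 and 12 UMIs, or 202, 200, 55.2 and 61.5 CPM. Injured libraries 1 and 2 lay far above every other library, whereas injured 3 and 4 fell within the uninjured range. Means were 130 ± 82.2 CPM after injury and 46.4 ± 14.99 CPM without it (SD, n = 4), with the largest relative spread of the 6 genes in injured cord (63.5% of the mean). The log2 fold change of 1.36 (SE 0.45) did not pass without the block (edgeR adjusted p = 0.142). With the block it rose (log2 fold change 1.35, SE 0.35, edgeR adjusted p = 0.0162), but not without pair 1 (0.91, edgeR adjusted p = 0.275) or pair 2 (1.13, edgeR adjusted p = 0.0776).

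**Figure D3:**
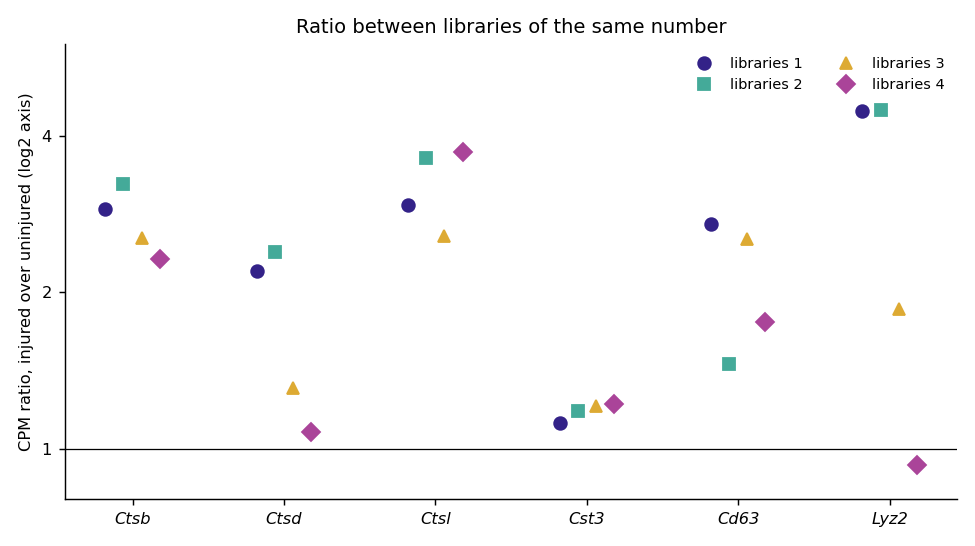
Ratio of CPM in the injured over the uninjured library of the same number, on a log2 axis, for each gene; the marker shows the number and the line a ratio of 1. Ctsb and Ctsl lie between 2.31 and 3.72 in all pairs, Cst3 between 1.12 and 1.22, and Lyz2 spreads from 0.929 to 4.49.

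Compared pair by pair, 5 of the 6 genes were higher in the injured library in 4 of 4 pairs and Lyz2 in 3 of 4. Such agreement was seen for 20.7% of all tested genes. Ctsb ratios ran from 2.31 to 3.23 and Ctsl ratios from 2.56 to 3.72, with no overlap with those of Cst3. Ctsd ratios were 2.19 and 2.39 in pairs 1 and 2 but 1.31 and 1.08 in pairs 3 and 4. Lyz2 showed the same grouping more widely, at 4.46 and 4.49 in pairs 1 and 2 and 1.86 and 0.929 in pairs 3 and 4. Cd63 did not follow it, with its higher ratios in pairs 1 and 3 (2.70 and 2.53) and its lower ones in pairs 2 and 4 (1.45 and 1.75). Whether the response differs between these pairs was not tested. Every injured library lay above every uninjured one in 4 of the 6 genes, Ctsb, Ctsd, Ctsl and Cd63, as in 7.52% of all tested genes.

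**Figure D4:**
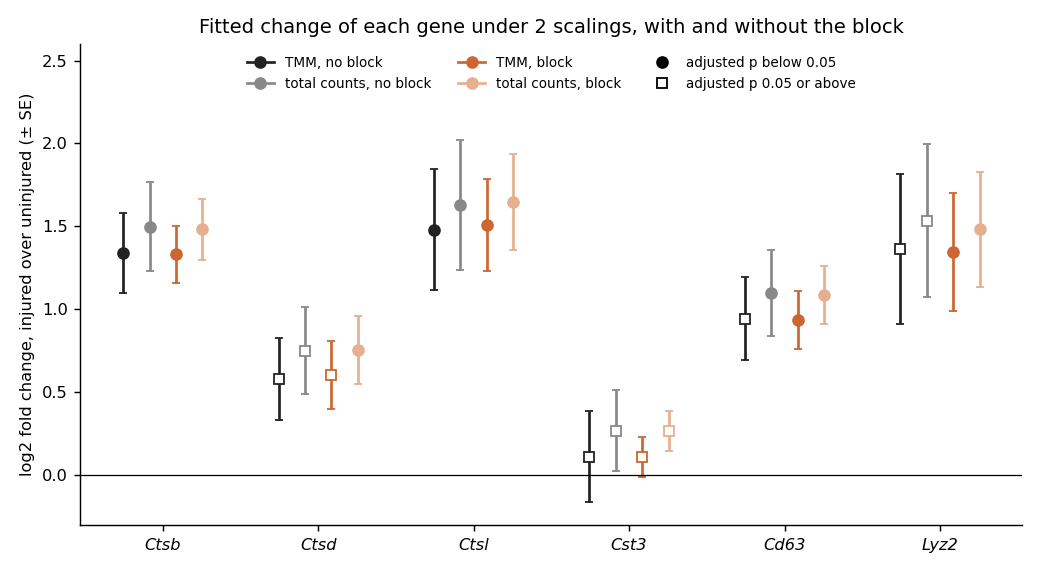
Fitted log2 fold change ± SE of each gene under TMM or total-count scaling, with and without the block; filled circles passed an adjusted p of 0.05 and open squares did not. Ctsb and Ctsl pass in all 4 fits and Cst3 in 0, and total counts place each gene higher than TMM does.

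Scaling shifted the 6 genes together, as it did the median log2 fold change of all tested genes (-0.03 with TMM, 0.12 with totals). With totals as the only scaling the log2 fold changes were 1.499 for Ctsb, 0.75 for Ctsd, 1.63 for Ctsl, 0.27 for Cst3, 1.10 for Cd63 and 1.53 for Lyz2. Ctsb, Ctsl and Cd63 were then called, where 3.58% of all tested genes were called higher. With the block and totals 5 of the 6 were called, all but Cst3 (edgeR adjusted p = 0.175), where 10.1% of all tested genes were.

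**Figure D5:**
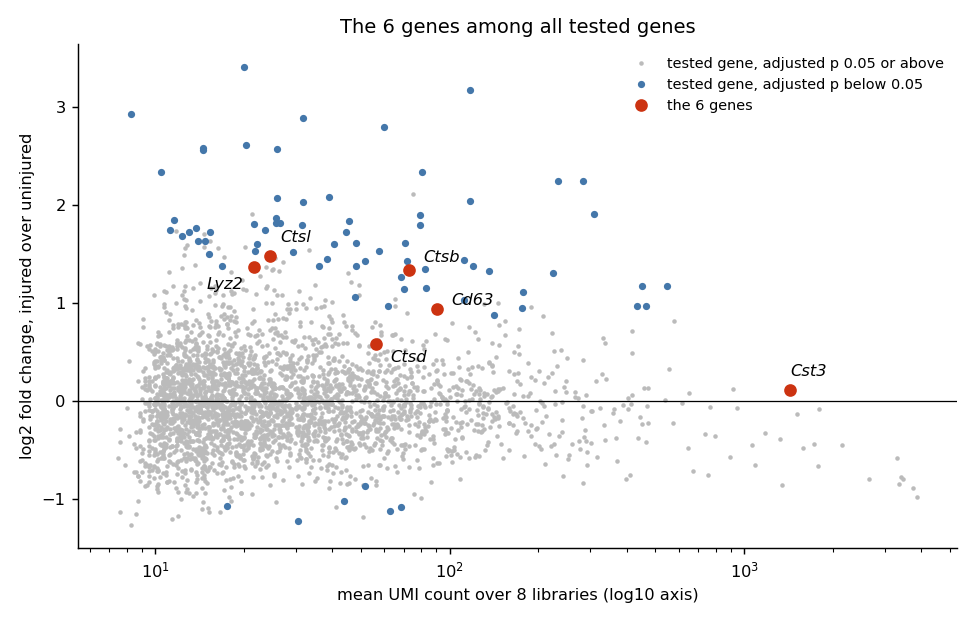
Log2 fold change without the block against the mean UMI count over 8 libraries (log10 axis) for the 3073 tested genes, with the 6 genes in red and genes past the threshold in blue. By log2 fold change Ctsl ranks 57th, Lyz2 71st, Ctsb 75th, Cd63 158th, Ctsd 342nd and Cst3 1136th of the 3073. Ctsl and Lyz2 entered the tested set through the injured group, so their ranks are descriptions only.

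As a share of all UMIs, the 6 genes together took 0.943%, 0.637%, 1.01% and 1.06% in injured libraries 1 to 4 and 0.728%, 0.465%, 0.788% and 0.843% in uninjured ones. Most of these UMIs were Cst3, and the groups overlapped. Without Cst3 the other 5 genes took 0.214%, 0.167%, 0.134% and 0.120% in injured libraries and 0.0778%, 0.0668%, 0.0632% and 0.0743% in uninjured ones, without overlap. These sums are descriptions of chosen genes and were not tested.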

How the data were processed

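Spinal cord RNA was measured in 8 CEL-Seq2 libraries, 4 per group. The authors deposited 1 table of raw UMI counts per Ensembl gene, not normalized. The build Rnor_6.0 and the tools HTSeq 0.6.0 and HISAT2 2.0.4 are named per the submitters' processing notes. Annotation release, UMI length and collapsing, strand use and filters are not stated in the sources used here, so reads of overlapping or antisense genes may be mixed. Each column was assigned by the code it shares with a title (0 unmatched), and groups came from the group label. Of the table's identifiers, 0 are paired with a symbol in the RefSeq table (GRCr8), so the 18 lists of lysosomal and cell type genes, and a search for genes of like pattern, could not be applied. The 6 genes and all lists were chosen with earlier results of these data known; all 6 are described by rule.

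The analysis used edgeR 4.0.16 under R 4.3.3: filterByExpr (minimum count 10, minimum total 15), TMM, glmQLFit (with its newer dispersion estimate, legacy off) and glmQLFTest over all 8 libraries, Benjamini-Hochberg adjustment over 3073 genes, which hold 89.0% of counts. SE is the ratio of the log2 fold change to the root of F, and 95% intervals use the test's degrees of freedom. Fits with and without the block were run on simulated counts that held no pair effect, which does not assess the block on paired libraries. CPM use library totals. Same-group libraries differed by more than counting noise (chi-square per degree of freedom 2.55 to 7.27), and none was treated as a duplicate. This comparison cannot tell whether the libraries stand for separate animals. Replicate numbers come from the titles. Correlations of same-number deviations were 0.389, 0.297, 0.342 and 0.423, each over the bound of 0.1. The numbers were treated as pairs in the fits with the block and in the ratios, while the main fit used the group only. The bound was not met by same-number libraries alone: injured 2 with uninjured 1 gave 0.241 and injured 1 with uninjured 2 gave 0.153. No label calls them paired. Alternatives were DESeq2 1.42.0, limma-voom 3.58.1, other scalings, no filter, the block, thinning to 112264 UMIs, a tag-collision correction and leaving out libraries or pairs.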

Additional observations from a re-analysis of the deposited data

How the results depend on the processing

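The 6 genes are counted here without the block as 2 called higher and 0 lower, among 70 higher and 6 lower genes in all. Total-count scaling gave 110 higher and 2 lower genes, and Cd63 gained its call (1.10 in log2). DESeq2 run without filterByExpr, a change of tool and filter together, called 19 genes lower and gained Cd63 (0.95). With limma-voom 1 of the 6 was called, Ctsl being lost (1.33), and 48 of 3073 genes in all were higher. Without the low-count filter 225 genes were higher, 13 lower and 4 of the 6 called, with Cd63 (1.05) and Lyz2 (1.47) gained. With the replicate block 208 were higher, 140 lower and 4 of the 6 called, with Cd63 (0.93) and Lyz2 (1.35) gained; it changed no other call of the 6. With the block and totals 309 were higher, 60 lower and 5 of the 6 called, with Ctsd (0.75), Cd63 (1.09) and Lyz2 (1.48) gained. With the block and the tag correction, added after the data were seen, 200 were higher, 129 lower and 5 of the 6 called, with Cst3 (0.33), Cd63 (0.94) and Lyz2 (1.32) gained. With all libraries thinned to 112264 UMIs 1 of the 6 was called, Ctsb, and 49 of 1962 genes in all were higher. Ctsl lost its call because it was then too low to be tested. Lyz2 was too low as well, but had no call to lose. RLE size factors, the tag correction without the block and, added after the data were seen, the older dispersion estimate of edgeR changed none of the 6 calls.

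Leaving out 1 library, or 1 pair with the block, gave 38 to 318 higher genes, 0 to 202 lower genes (0 without injured 1, by edgeR, with 139 at an unadjusted p under 0.05) and 1 to 5 of the 6 called. Log2 fold changes then ran from 1.29 to 1.74 for Ctsl, 0.74 to 1.11 for Cd63, 0.91 to 1.84 for Lyz2, 0.40 to 0.83 for Ctsd and -0.077 to 0.30 for Cst3. Cst3 was below 0 without uninjured 2 (-0.077) and without injured 4 (-0.048), and was not called in either. The cause of the other changes was not tested. Depth limits Ctsl and Lyz2 most, with 31 and 28 UMIs over the 4 uninjured libraries.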
